A study of Mus musculus with 18 samples.

Results

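The genes described here are 40 interferon-stimulated and antigen presentation genes of the mouse, listed by symbol and read in cultured C2C12 myoblasts. All 40 symbols were found among the 24028 genes of the deposited count table. RNA-seq libraries came from 18 cultures in 6 groups of 3. Each group belonged to 1 of 3 clonal, puromycin-selected C2C12 lines that carry a doxycycline-inducible transgene. The groups were the codon-altered mouse Dux line with doxycycline (induced Dux), the same line without it (uninduced Dux), the codon-altered human DUX4 line with doxycycline (induced DUX4) and without it (uninduced DUX4), and a firefly luciferase line with doxycycline (induced luciferase) and without it (uninduced luciferase). Induction took 36 h at a doxycycline dose of 2 µg/ml, and cultures left without it were collected at the same time. Dux and DUX4 are homeobox transcription factors, and the study asked how far their target genes are shared when both act in mouse muscle cells. Because each transgene was carried by a single clone, clone and transgene cannot be told apart in any comparison between lines.

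Interferons are secreted proteins that bind receptors on the cell surface and activate JAK kinases, which phosphorylate STAT proteins. A complex that holds STAT2 and IRF9 then binds the interferon-stimulated response element (ISRE), whereas interferon gamma acts mainly through the gamma-activated sequence (GAS). The genes switched on in this way encode sensors of foreign nucleic acid, factors that amplify the signal, proteins that block viral replication, ubiquitin-like modifiers, GTPases that attack pathogen vacuoles, and the machinery that cuts and transports peptides for display on MHC class I molecules. Myoblasts respond to both classes of interferon although they are not immune cells.

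Promoter sequences are shown for 6 genes whose windows hold an ISRE core. Of these, 4 had a rise that passed the test in one factor line only (Irgm1, Ifit1, Ifit3, Oas1a), and a pair rose in both (Igtp, Bst2). In the other line Oas1a and Ifit1 had few counts, so a rise there cannot be judged. Irf7 and Oasl2 also rose, but their windows hold no such core and are not printed. The windows are RefSeq sequences of GRCm38.p6, from 250 bases before to 50 bases after the start site, written 5′ to 3′ along the gene. Capitals mark every match of the ISRE core (GAAA, any 2 bases, GAAA) on either strand, so that TTTC, any 2 bases, TTTC is the same core on the opposite strand, and overlapping matches run together. The windows lie at chr11:48871371-48871670 (minus strand) for Irgm1, chr11:58199306-58199605 (plus strand) for Igtp, chr19:34640639-34640938 (plus strand) for Ifit1, chr19:34583279-34583578 (plus strand) for Ifit3, chr5:120907476-120907775 (minus strand) for Oas1a and chr8:71537423-71537722 (minus strand) for Bst2.
Irgm1: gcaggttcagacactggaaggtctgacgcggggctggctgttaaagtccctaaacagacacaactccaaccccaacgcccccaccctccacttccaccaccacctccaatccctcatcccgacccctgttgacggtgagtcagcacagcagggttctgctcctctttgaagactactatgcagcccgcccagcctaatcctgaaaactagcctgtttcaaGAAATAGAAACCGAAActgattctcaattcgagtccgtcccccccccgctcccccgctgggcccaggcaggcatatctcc
Igtp: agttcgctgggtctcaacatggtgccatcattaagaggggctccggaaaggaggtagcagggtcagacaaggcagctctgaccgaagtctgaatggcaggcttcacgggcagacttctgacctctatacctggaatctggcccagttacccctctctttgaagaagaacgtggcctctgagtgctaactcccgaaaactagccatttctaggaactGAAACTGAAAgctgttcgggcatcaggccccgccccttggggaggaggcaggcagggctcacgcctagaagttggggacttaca
Ifit1: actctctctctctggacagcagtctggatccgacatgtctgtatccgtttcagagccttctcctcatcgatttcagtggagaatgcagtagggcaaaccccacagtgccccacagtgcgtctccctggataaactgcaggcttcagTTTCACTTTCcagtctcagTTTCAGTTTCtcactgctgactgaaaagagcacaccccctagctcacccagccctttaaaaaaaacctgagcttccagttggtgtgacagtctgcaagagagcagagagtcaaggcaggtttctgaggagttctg
Ifit3: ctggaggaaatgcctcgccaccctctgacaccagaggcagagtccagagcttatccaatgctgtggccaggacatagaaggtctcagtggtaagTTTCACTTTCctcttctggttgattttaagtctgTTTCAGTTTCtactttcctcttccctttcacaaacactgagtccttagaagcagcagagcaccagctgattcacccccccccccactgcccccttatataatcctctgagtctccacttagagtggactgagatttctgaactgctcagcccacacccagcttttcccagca
Oas1a: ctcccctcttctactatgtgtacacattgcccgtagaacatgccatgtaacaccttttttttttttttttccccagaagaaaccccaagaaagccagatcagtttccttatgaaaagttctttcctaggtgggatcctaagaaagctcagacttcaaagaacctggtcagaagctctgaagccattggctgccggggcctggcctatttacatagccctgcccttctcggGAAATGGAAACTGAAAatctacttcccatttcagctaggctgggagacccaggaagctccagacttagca
Bst2: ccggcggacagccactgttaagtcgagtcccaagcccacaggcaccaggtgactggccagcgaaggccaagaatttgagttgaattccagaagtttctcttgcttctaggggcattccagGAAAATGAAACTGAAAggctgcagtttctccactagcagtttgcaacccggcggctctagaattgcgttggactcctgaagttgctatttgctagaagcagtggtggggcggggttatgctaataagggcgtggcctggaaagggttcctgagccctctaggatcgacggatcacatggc

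The ISRE core was found in 15 of the 31 genes that matched a RefSeq window, or 48.4%, against 1131 of all 32851 windows, or 3.44%. A gene counted if any of its windows held the core, and the 31 genes had 37 windows. The first share is thus per gene and the second per window, here and for the other motifs. Ifit1 and Ifit3 each held a pair of separate cores in the reverse direction, at −104 to −95 and −85 to −76 in Ifit1 and at −156 to −147 and −122 to −113 in Ifit3. In Irgm1, Oas1a and Bst2 the 2 cores overlapped, and in Oas1a they ended 5 bases before the start site. The GAS element TTCNNNGAA, searched on both strands, was found in 10 of the 31 genes (32.3%) and in 2726 of all windows (8.30%). In Igtp a GAS element stood at −45 to −37, next to the ISRE core at −34 to −25. The DUX4-type motif (TAA, any 3 bases, AATCA) was in 0 of the 31 genes and in 338 of all windows (1.03%) on either strand. These matches describe letters in the windows and say nothing of binding. No window was matched for Dhx58, Zbp1, Mx1, Mx2, Ifi27, Usp18, Parp9, Parp14 and Ccl5.

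**Figure D1:**
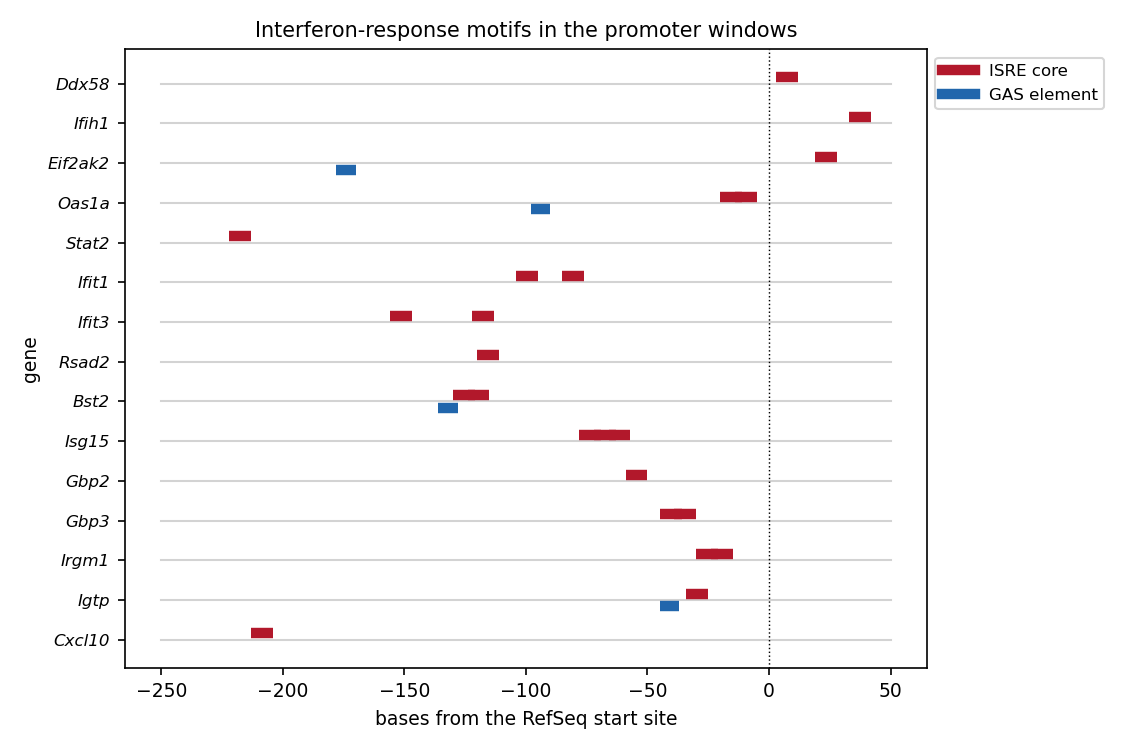
Positions of the ISRE core (red) and the GAS element (blue) in the promoter windows of the 15 genes that hold an ISRE core, in bases from the RefSeq start site (dotted line), with each grey line spanning 250 bases before to 50 bases after it. Cores of Irgm1, Igtp and Oas1a sit just before the start site, and those of Ifit3 lie farthest upstream among the genes whose sequence is printed.

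Library totals ranged from 11010586 to 17179642 counts. Counts were scaled to a common depth as CPM with TMM factors, and 33 of the 40 genes had enough counts for testing. The other 7 were Mx2, Rsad2, Ifi44, Usp18, Psmb8, Cxcl10 and Ccl5. Zscan4c, a known Dux target, stood at 18695 ± 609 CPM in induced Dux cultures and 3.33 ± 0.506 CPM in uninduced ones (SD, n = 3 each), and all group means in the DUX4 and luciferase lines were between 2.71 and 3.71 CPM. Reads of the transgenes were not analysed here. Induced Dux library 1 stood apart from libraries 2 and 3 of its group. Its chi-square per degree of freedom was 33.2 and 35.6 against them, whereas libraries 2 and 3 differed by 2.11. Uninduced Dux library 1 also stood apart, to a lesser degree, at 5.02 and 5.10, whereas uninduced Dux libraries 2 and 3 differed by 1.25. Of 6 myoblast markers, Vim was abundant in all groups. Des ranged from 76.3 ± 4.95 CPM in induced DUX4 to 1282 ± 12.1 CPM in uninduced luciferase cultures. Cdh15 was at 54.5 CPM induced and 190 uninduced in the Dux line, 43.5 and 131 in the DUX4 line, and 407 and 534 in the luciferase line. Myod1 stood at only 3.67 ± 0.907 CPM in induced DUX4 cultures and 26.2 ± 0.403 in uninduced DUX4 cultures. Myf5 was nearly absent from the Dux line (0.0438 ± 0.0759 CPM induced, 0.258 ± 0.123 uninduced), and Myog was at 2.32 CPM or less in the Dux and DUX4 lines. The 8 leukocyte markers summed to 4.69 to 6.18 CPM in induced Dux libraries against 1.10 to 2.49 CPM in uninduced ones, and to 21.3 to 25.1 CPM in induced DUX4 libraries against 1.81 to 1.92 CPM in uninduced ones. In induced DUX4 cultures that sum was almost wholly Cd68 (20.9 ± 1.64 CPM) and Itgam (2.04 ± 0.288 CPM), while Ptprc, the pan-leukocyte marker, Cd3e and Laptm5 had no count there and Adgre1 had 3 counts. In induced Dux cultures it was mainly Cd68 (2.44 ± 0.806 CPM) and Lyz2 (2.63 ± 0.270 CPM), with Adgre1 and Cd3e at no count and Ptprc at 3 counts. The endothelial marker Cdh5 was present in the luciferase line (23.4 ± 1.14 CPM induced, 25.4 ± 1.80 uninduced), and the summed endothelial markers were at or under 1.47 CPM in every library of the other lines. The part of these marker genes' cells or states in the results was not tested. As these are bulk samples, a change in the share of cells that express a gene and a change in its level per cell cannot be told apart.

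In the Dux line 14 of the 33 genes rose on induction and 7 fell (edgeR quasi-likelihood test, Benjamini-Hochberg adjusted p under 0.05). That is 63.6% of the genes, against 68.9% of the 13602 genes tested in the whole table (34.1% higher and 34.8% lower), so the number of calls does not set these genes apart. Their median log2 fold change was 0.28, against −0.01 over all genes. In the DUX4 line 17 rose and 4 fell, again 63.6%, against 67.6% of all genes (34.4% higher and 33.1% lower), with a median of 0.38 against 0 over all genes. In the luciferase line 2 rose and 3 fell with doxycycline, 15.2% against 31.1% of all genes (14.7% higher and 16.4% lower), with a median of −0.09 against 0. Side by side, 6 rose in both the Dux and the DUX4 line (Irf7, Mx1, Bst2, Trim25, Parp14 and Igtp), 2 fell in both (Irf1 and Samhd1), and 5 moved in opposite directions (Irgm1, Eif2ak2, Ifit2, Dtx3l and Parp9). The shares of all genes in these joint classes were not computed. With 68.9% and 67.6% of all genes called in the 2 lines, many genes are called in both. These joint counts therefore do not set the genes apart.

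**Figure D2:**
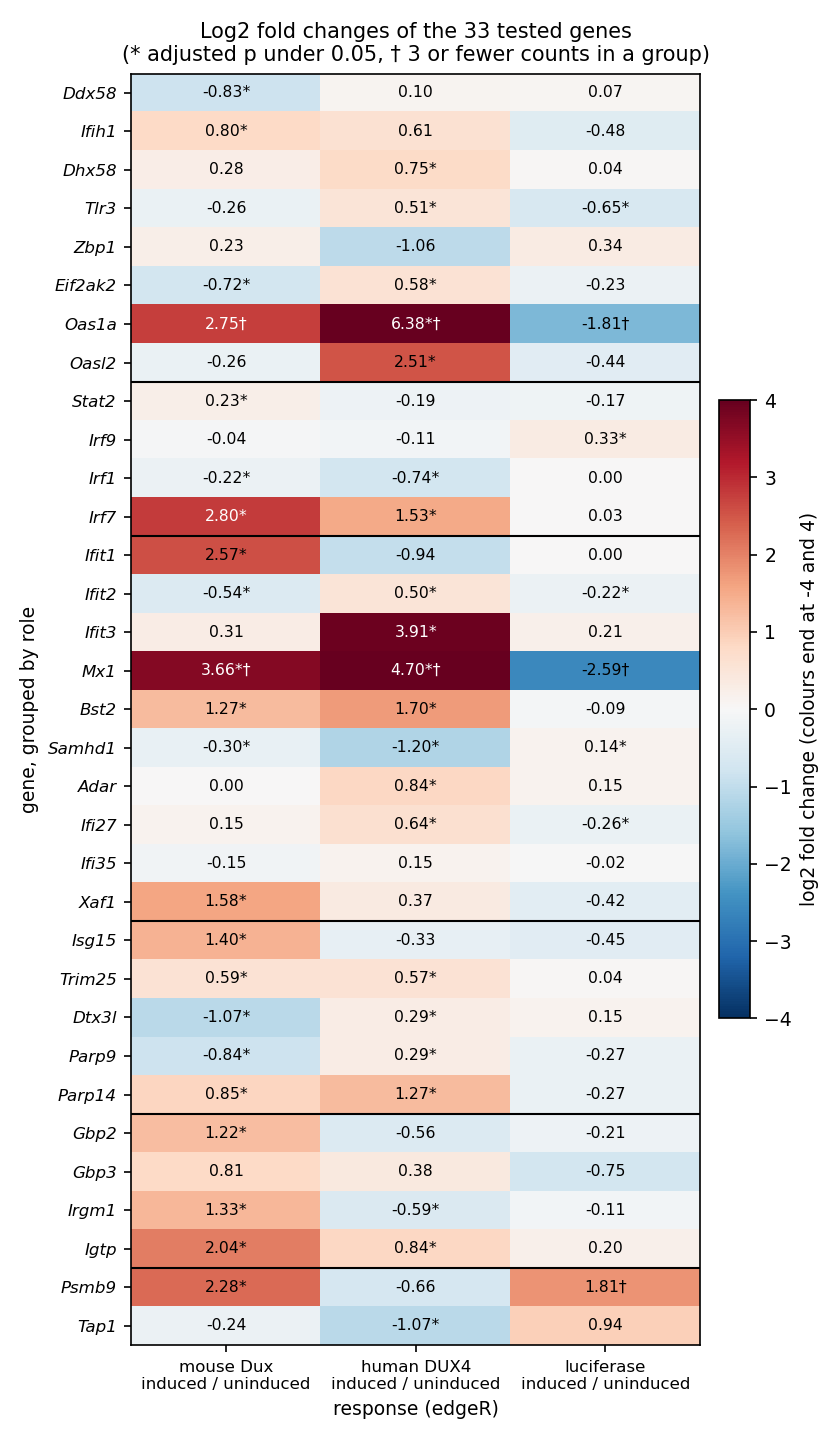
Log2 fold changes (induced over uninduced, edgeR) of the 33 tested genes in the mouse Dux, human DUX4 and luciferase lines, grouped by role, with blue for lower, red for higher and an asterisk for an adjusted p under 0.05. A dagger marks fitted values with 3 or fewer counts in a group, which depend on the prior count; among the others Irf7 and Ifit1 lead the Dux column and Ifit3 and Oasl2 the DUX4 column, and the luciferase column holds 5 asterisks.

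Of 8 sensors of RNA and DNA, 1 rose and 2 fell in induced Dux cultures (37.5%, against 68.9% of all genes), and 5 rose and 0 fell in induced DUX4 cultures (62.5%, against 67.6%). Eif2ak2 was the only sensor that passed the test in both lines, in opposite directions. Ddx58, which encodes the cytosolic RNA sensor RIG-I (chromosome 4, 40203773 to 40239828 in GRCm38, minus strand), stood at 14.9, 17.9 and 15.8 CPM in induced Dux libraries, against 26.9, 28.7 and 30.7 CPM in uninduced ones. All 3 induced libraries lay below all 3 uninduced ones, and the gene fell by 0.83 on the log2 scale (SE 0.0650, adjusted p = 9.61e-10). It was at 30.7 ± 0.0657 CPM in induced DUX4 cultures and 28.7 ± 0.710 in uninduced ones, a log2 fold change of 0.10 that did not pass the test (adjusted p = 0.161). Ifih1, the sensor of long RNA duplexes, rose in induced Dux cultures to 2.60 ± 0.243 CPM, against 1.45 ± 0.557 CPM uninduced (log2 fold change 0.80, SE 0.247, adjusted p = 0.00759). With DUX4 its 0.61 (adjusted p = 0.0939) did not pass, except without uninduced DUX4 library 2 (0.88, adjusted p = 0.0399).

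Eif2ak2 encodes the RNA-activated kinase PKR, which shuts down translation by phosphorylating an initiation factor (chromosome 17, 78852564 to 78882573, minus strand). It read 21.6, 33.9 and 36.3 CPM in induced Dux libraries, against 47.5, 52.4 and 50.6 CPM in uninduced ones. In induced DUX4 libraries it read 105, 109 and 108 CPM, against 69.6, 73.5 and 72.9 CPM in uninduced ones. Neither pair of groups overlapped, and the directions were opposite: −0.72 (SE 0.114, adjusted p = 1.41e-05) with Dux and 0.58 (SE 0.102, adjusted p = 5.03e-05) with DUX4. Within the induced Dux group, library 1 gave the lowest value, and without it the log2 fold change was −0.53.

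The oligoadenylate synthetase gene Oas1a makes a second messenger that activates RNase L (chromosome 5, 120896256 to 120907521, minus strand). It had 113 counts over the 3 induced DUX4 libraries (2.64, 2.77 and 2.21 CPM) and 1 count over the uninduced ones, a ratio of 114 (95% exact interval 20 to 4541, counting error only). In the Dux line it had 2 counts induced and 0 uninduced, so no fold is given, and the luciferase line had 0 induced and 1 uninduced. Its relative Oasl2 (chromosome 5, 114896936 to 114912234, plus strand) reached 12.9, 12.3 and 11.8 CPM in induced DUX4 libraries, against 1.88, 2.37 and 2.26 CPM in uninduced ones. Every induced DUX4 library was thus above every other library of the series for this gene. The log2 fold change was 2.51 (SE 0.155, adjusted p = 2.36e-11) with DUX4 and −0.26 (SE 0.383, adjusted p = 0.580) with Dux, where the groups overlapped at 0.424 to 0.870 CPM.

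Tlr3, the endosomal receptor for RNA duplexes, rose in induced DUX4 cultures to 5.03 ± 0.665 CPM, against 3.54 ± 0.473 CPM uninduced (0.51, SE 0.147, adjusted p = 0.00465). Dhx58, a RIG-I relative without signalling domains, rose there only just past the threshold (0.75, SE 0.327, adjusted p = 0.0493). That call was lost in each of 4 fits that left out a single DUX4 library (induced 1 or 2, uninduced 2 or 3), with values of 0.57 to 0.75 and adjusted p-values of 0.0906 to 0.194. Zbp1, a sensor of Z-form nucleic acid, passed the test in none of the 3 lines and was counted at 1.48 CPM or less in all but 1 library, induced luciferase library 3, at 1.61 CPM.

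Among the 4 signalling and transcription factors, Irf7 changed most. Irf7 is the transcription factor that amplifies interferon production (chromosome 7, 141262706 to 141266481, minus strand). It stood at 10.6, 10.1 and 10.7 CPM in induced Dux libraries, against 1.61, 1.39 and 1.53 CPM in uninduced ones. In the DUX4 line it was at 5.43, 4.09 and 4.28 CPM induced, against 2.00, 0.898 and 1.89 CPM uninduced. Induced libraries were above uninduced ones throughout in both lines, with log2 fold changes of 2.80 (SE 0.193, adjusted p = 1.53e-10) for Dux and 1.53 (SE 0.217, adjusted p = 3.60e-06) for DUX4. The luciferase line had 0.936 ± 0.336 CPM induced and 0.921 ± 0.164 uninduced (0.03, adjusted p = 0.976).

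Irf1, a transcription factor of the early interferon gamma response, fell in both lines, to 22.1 ± 1.97 CPM against 25.7 ± 1.04 CPM uninduced with Dux (−0.22, SE 0.0682, adjusted p = 0.00877) and to 32.1 ± 2.27 CPM against 53.5 ± 0.524 CPM uninduced with DUX4 (−0.74, SE 0.0608, adjusted p = 1.86e-09). The Dux call was lost without induced Dux library 2 (−0.15, adjusted p = 0.0614). Stat2 and Irf9 encode subunits of the complex that binds the ISRE. Stat2 was at 20.8, 30.6 and 26.7 CPM in induced Dux libraries, against 21.2, 21.7 and 23.2 CPM in uninduced ones, which overlap. Its call (0.23, SE 0.100, adjusted p = 0.0461) was lost in each of 4 fits that left out a single Dux library (induced 2 or 3, uninduced 1 or 2), with values of 0.10 to 0.22 and adjusted p-values of 0.112 to 0.353. With library size alone for scaling it was −0.01 (adjusted p = 0.934). Irf9 passed the test in neither line (−0.04 with Dux, −0.11 with DUX4).

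The 3 Ifit genes encode proteins that bind viral RNA and lie near each other on chromosome 19, yet each had its own pattern. Ifit1 (34640871 to 34650009, plus strand) read 9.47, 8.56 and 8.20 CPM in induced Dux libraries, against 1.27, 1.74 and 1.34 CPM in uninduced ones. In the DUX4 line it was scarcely counted, with 5 counts over the induced and 10 over the uninduced libraries. The Dux rise was 2.57 on the log2 scale (SE 0.232, adjusted p = 8.75e-09), and the DUX4 value of −0.94 (adjusted p = 0.357) did not pass the test.

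Ifit3 (chromosome 19, 34583531 to 34588731, plus strand) read 10.0, 8.78 and 11.7 CPM in induced DUX4 libraries, against 0.563, 0.833 and 0.603 CPM in uninduced ones. In the Dux line it was at 2.63, 2.10 and 2.42 CPM induced and 2.04, 2.26 and 1.47 CPM uninduced. The DUX4 groups were far apart and the Dux groups overlapped, with log2 fold changes of 3.91 (SE 0.237, adjusted p = 1.69e-11) and 0.31 (SE 0.250, adjusted p = 0.276). Reads may be shared with its near-identical copy Ifit3b, which had 3.64 ± 0.449 CPM in induced DUX4 cultures and 0.338 ± 0.135 CPM in uninduced ones (3.41, SE 0.295). Ifit2 (chromosome 19, 34550694 to 34576419, plus strand) moved against Ifit1 in the Dux line. It read 24.3, 29.4 and 29.2 CPM in induced Dux libraries, against 40.7, 40.6 and 38.9 CPM in uninduced ones, a fall of 0.54 on the log2 scale (SE 0.0727, adjusted p = 2.16e-06). With DUX4 it rose by 0.50 (SE 0.0845, adjusted p = 2.80e-05), to 20.1 ± 1.07 CPM against 14.2 ± 0.654 CPM uninduced.

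Mx1 and Mx2 encode dynamin-like GTPases that trap viral particles, and both were close to silent without induction. Mx1 had 28 counts in induced and 2 in uninduced Dux libraries, a ratio of 14.8 (95% exact interval 3.74 to 129), and 35 counts in induced and 1 in uninduced DUX4 libraries, a ratio of 35.3 (5.93 to 1434). Both rises passed the test (adjusted p = 0.000156 with Dux and 2.23e-05 with DUX4). Both uninduced Dux counts were in library 3, and the fitted Dux log2 fold change of 3.66 became 6.34 without it. Mx2, which had too few counts for the test, had 45 counts in induced and 2 in uninduced DUX4 libraries, a ratio of 22.7 (5.93 to 193), and 3 against 1 in the Dux line.

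Bst2, which tethers budding viruses to the cell surface (chromosome 8, 71534255 to 71537456, minus strand), rose with both factors. It was at 19.0, 14.3 and 14.7 CPM in induced Dux libraries, against 7.73, 6.27 and 6.24 CPM in uninduced ones, and at 21.2, 21.1 and 23 CPM in induced DUX4 libraries, against 7.94, 6.28 and 5.73 CPM in uninduced ones. The log2 fold changes were 1.27 (SE 0.130, adjusted p = 5.00e-08) and 1.70 (SE 0.124, adjusted p = 2.86e-10), and the luciferase line gave −0.09 (adjusted p = 0.667). Samhd1, an enzyme that depletes the deoxynucleotides viruses need (chromosome 2, 157097533 to 157135265, minus strand), went the other way. It fell to 39.9, 40.4 and 39.5 CPM in induced DUX4 libraries, against 92.4, 90.7 and 92.7 CPM in uninduced ones, by 1.20 on the log2 scale (SE 0.0438, adjusted p = 6.83e-15). With Dux it fell by 0.30 (SE 0.0420, adjusted p = 3.41e-06), and in the luciferase line it rose by 0.14 with doxycycline (adjusted p = 0.0139).

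Adar, which edits adenosines in RNA duplexes, rose with DUX4 to 97.8 ± 3.31 CPM, against 54.4 ± 1.60 CPM uninduced (0.84, SE 0.0972, adjusted p = 2.33e-07), and did not pass the test with Dux (0.00, adjusted p = 0.975), where induced library 1 was at 34.3 CPM and libraries 2 and 3 at 48.4 and 51.7 CPM. Without that library it passed (0.14, adjusted p = 0.0418). Ifi27, a small mitochondrial protein gene, rose with DUX4 to 61.9 ± 2.67 CPM, against 39.8 ± 1.03 CPM uninduced (0.64, SE 0.0938). The proapoptotic Xaf1 rose with Dux to 4.41, 5.18 and 4.54 CPM, against 1.70, 1.33 and 1.72 CPM uninduced (1.58, SE 0.175, adjusted p = 1.52e-07). With DUX4 it reached 0.37 (adjusted p = 0.0632), and it passed the test at 0.50 when either induced DUX4 library 2 (adjusted p = 0.0199) or uninduced DUX4 library 1 (adjusted p = 0.0293) was left out. Ifi35 passed in no line, with values between −0.15 and 0.15. Rsad2 had at most 12 counts and Ifi44 at most 13 counts in any group.

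**Figure D3:**
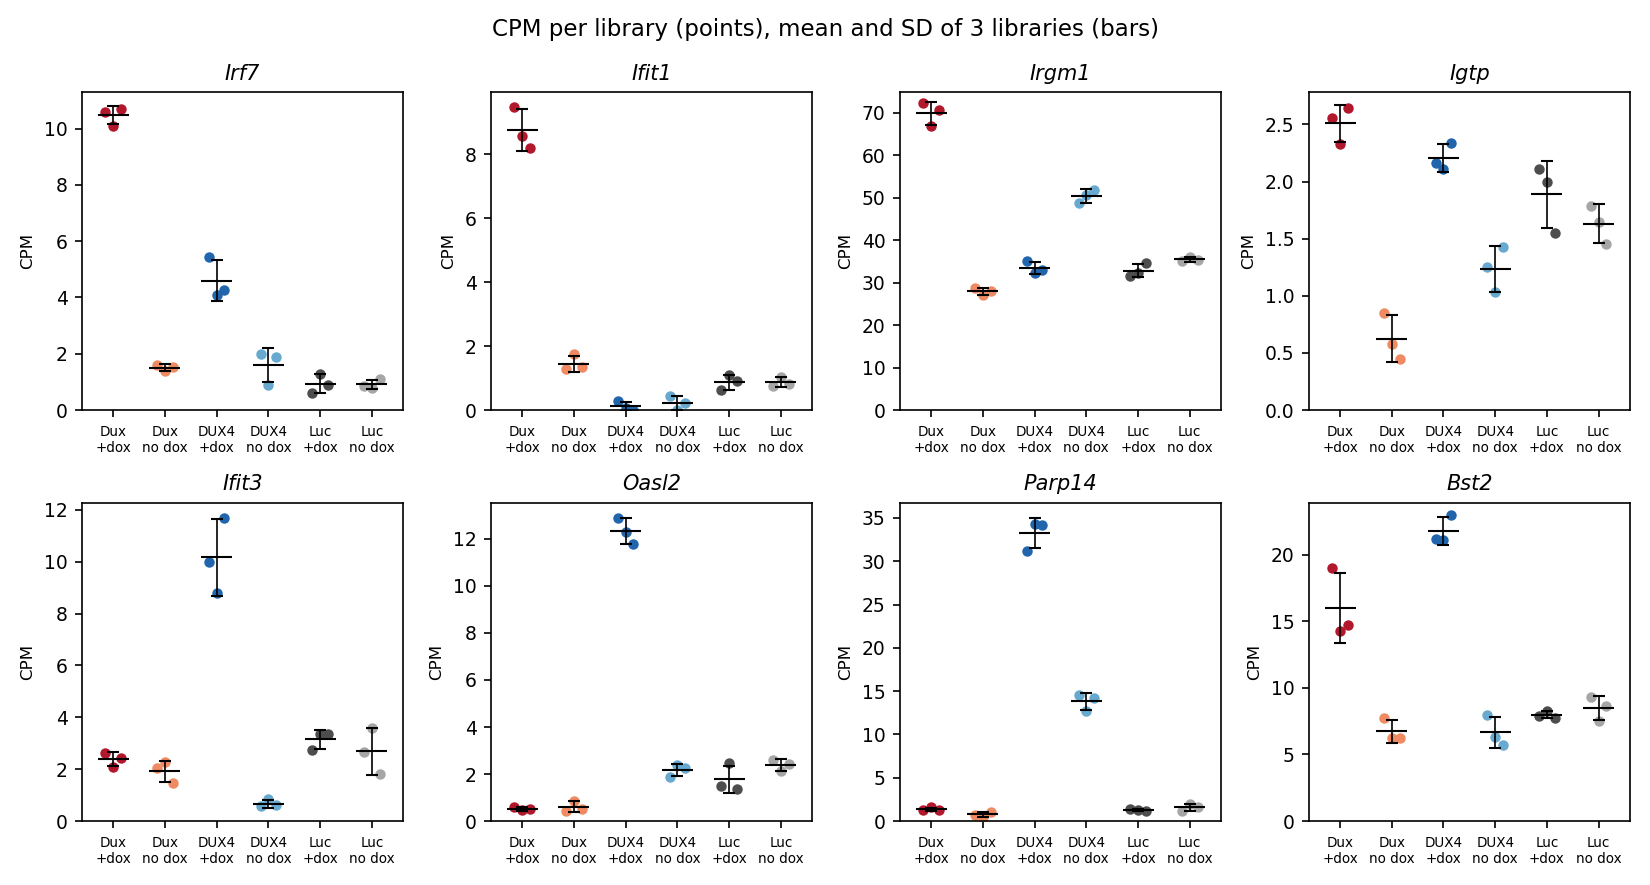
CPM of Irf7, Ifit1, Irgm1, Igtp, Ifit3, Oasl2, Parp14 and Bst2 in each of the 18 libraries (points), with the mean and SD of the 3 libraries of each group (bars), and induced groups left of their uninduced groups. Ifit1 and Irgm1 are highest in induced Dux libraries, Ifit3, Oasl2 and Parp14 in induced DUX4 libraries, and Bst2, Irf7 and Igtp rise in both lines.

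Isg15 encodes a ubiquitin-like protein that is attached to other proteins (chromosome 4, 156199424 to 156200818, minus strand). It was at 2.37, 1.5 and 1.98 CPM in induced Dux libraries, against 0.764, 0.464 and 1.02 CPM in uninduced ones (1.40, SE 0.262, adjusted p = 9.81e-05). In the DUX4 line it had 1.91 ± 0.305 CPM induced and 2.41 ± 0.161 CPM uninduced (−0.33, adjusted p = 0.156). Induced luciferase cultures had 1.95 ± 0.172 CPM and uninduced ones 2.64 ± 0.272 CPM (−0.45, adjusted p = 0.0894). Usp18, which removes Isg15 from proteins, had 12 counts in induced and 2 in uninduced Dux libraries, a ratio of 6.36 (95% exact interval 1.42 to 58.5). In the luciferase line it had 1 count induced and 9 uninduced, a ratio of 0.111 (0.00253 to 0.8). Trim25, the ubiquitin ligase that activates RIG-I, rose in both lines, by 0.59 with Dux (SE 0.0810) and 0.57 with DUX4 (SE 0.0731), with a difference of 0.02 (SE 0.109, adjusted p = 0.915).

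Parp9 and Dtx3l encode partners in a ubiquitin ligase complex, are transcribed away from each other on chromosome 16 and overlap at their 5′ ends, so that reads there cannot be assigned with certainty. Dtx3l read 6.25, 6.68 and 7.62 CPM in induced Dux libraries, against 13.6, 13.9 and 15.5 CPM in uninduced ones. Parp9 moved with it, at 7.89, 5.86 and 8.64 CPM against 13.3, 13.5 and 13.4 CPM. Both fell, by 1.07 (SE 0.0935, adjusted p = 5.32e-09) and 0.84 (SE 0.101, adjusted p = 4.56e-07) on the log2 scale. With DUX4 both rose by 0.29 (adjusted p = 0.00268 for Dtx3l and 0.00319 for Parp9). Parp14, an ADP-ribosyltransferase gene of the same chromosome (35832874 to 35871544, minus strand), was at 31.2, 34.3 and 34.2 CPM in induced DUX4 libraries, against 14.6, 12.7 and 14.2 CPM in uninduced ones (1.27, SE 0.0903, adjusted p = 2.00e-10). In the Dux line it was far lower, 1.25, 1.58 and 1.32 CPM induced against 0.679, 0.522 and 1.08 CPM uninduced (0.85, SE 0.277, adjusted p = 0.0110), and that call was lost without uninduced Dux library 2 (0.59, adjusted p = 0.111) and with library size alone for scaling (0.61, adjusted p = 0.0618).

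Of the 4 interferon-inducible GTPases, which act on vacuoles that hold pathogens, 3 rose and 0 fell with Dux. That is 75.0%, against 68.9% of all genes called in either direction (34.1% higher and 34.8% lower). With DUX4 1 rose and 1 fell (50%, against 67.6% in either direction). Irgm1 (chromosome 11, 48861968 to 48871683, minus strand) was at 72.2, 66.9 and 70.6 CPM in induced Dux libraries, against 28.8, 27.0 and 28.0 CPM in uninduced ones. In induced DUX4 libraries it was at 35.1, 32.3 and 33.1 CPM, against 48.7, 50.6 and 51.9 CPM in uninduced ones. The groups were apart in both lines and the directions opposite, 1.33 with Dux (SE 0.0529, adjusted p = 3.46e-14) and −0.59 with DUX4 (SE 0.0527, adjusted p = 6.29e-09). Igtp (chromosome 11, 58199556 to 58207591, plus strand) rose in both lines. It read 2.56, 2.33 and 2.64 CPM in induced Dux libraries, against 0.849, 0.580 and 0.446 CPM in uninduced ones, and 2.16, 2.11 and 2.34 CPM in induced DUX4 libraries, against 1.25, 1.03 and 1.43 CPM in uninduced ones. The log2 fold changes were 2.04 (SE 0.228, adjusted p = 1.75e-07) and 0.84 (SE 0.199, adjusted p = 0.000974). Gbp2 had 29 counts in induced and 13 in uninduced Dux libraries (1.22, SE 0.447, adjusted p = 0.0212), and its call was lost without induced Dux library 1 (1.08, adjusted p = 0.0712), without uninduced Dux library 1 (0.90, adjusted p = 0.0809) and with library size alone for scaling (0.98, adjusted p = 0.0559). Gbp3 did not pass (0.81 with Dux, adjusted p = 0.0776), though it did without induced Dux library 2 (1.08, adjusted p = 0.0223).

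Of the 3 genes of antigen processing, Psmb8 and Psmb9 had few counts. Psmb9, an inducible catalytic subunit of the immunoproteasome, had 47 counts over induced Dux libraries (0.855, 1.58 and 0.952 CPM) and 10 over uninduced ones (0.170, 0.174 and 0.319 CPM). The groups did not overlap and the log2 fold change was 2.28 (SE 0.489, adjusted p = 0.000514). With DUX4 there were 8 counts induced and 13 uninduced (−0.66, adjusted p = 0.412). Psmb8, its companion subunit, had at most 6 counts in any group. Tap1 pumps peptides into the endoplasmic reticulum, lies head to head with Psmb9 on chromosome 17 (34187553 to 34197225, plus strand, against 34181987 to 34187764, minus strand), and overlaps it, so reads there are uncertain. It was at 0.487, 0.594 and 0.937 CPM in induced DUX4 libraries, against 1.38, 1.22 and 1.73 CPM in uninduced ones (−1.07, SE 0.282, adjusted p = 0.00231), and at 4.65 ± 0.524 CPM in induced Dux cultures and 5.47 ± 0.276 in uninduced ones (−0.24, adjusted p = 0.163).

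The wider MHC class I and peptide-loading list of 20 genes, none of them among the 40, had 6 higher and 7 lower in induced Dux cultures (65.0%, against 68.9% of all genes), 8 higher and 8 lower in induced DUX4 cultures (80%, against 67.6%) and 2 higher and 7 lower in induced luciferase cultures (45.0%, against 31.1%). The list also holds general proteasome subunits (Psmb5, Psmb6, Psmb7) and general chaperones (Calr, Canx, Pdia3). Of these, Calr, Pdia3, Psmb6 and Psmb7 were among the 7 lower in the luciferase line. The class I heavy chain gene H2-K1 was at 61.4, 52.7 and 49.5 CPM in induced Dux libraries, against 26.1, 28.2 and 26.0 CPM in uninduced ones (1.03, SE 0.0736). The proteasome activator Psme1 rose with Dux to 115 ± 9.84 CPM, against 44.5 ± 1.68 CPM uninduced (1.37, SE 0.0617), and Nlrc5, the transcriptional activator of class I genes, to 3.14 ± 0.815 CPM, against 0.975 ± 0.113 CPM (1.68, SE 0.254). Nlrc5 also rose with doxycycline in the luciferase line (1.22, SE 0.380, adjusted p = 0.0208), and H2-K1 fell there (−0.64, SE 0.101, adjusted p = 5.65e-05). Tap2, the partner of Tap1, and Tapbp, which holds class I molecules to the transporter, fell with Dux, Tap2 to 9.14 ± 0.319 CPM, against 26.5 ± 0.598 CPM (−1.53, SE 0.0734), and Tapbp to 68.9 ± 6.94 CPM, against 137 ± 0.940 CPM (−0.99, SE 0.0608). In the luciferase line Tap2 was at 8.50 ± 0.323 CPM induced and 7.42 ± 0.551 CPM uninduced, both far below uninduced Dux cultures. Tapbp fell there by 0.24 (SE 0.0594, adjusted p = 0.00472). B2m, the invariant light chain, fell by 0.25 with Dux (SE 0.0651, overlapping groups) and rose by 0.26 with DUX4 (SE 0.0644). H2-M3, a class I molecule that presents formylated peptides, rose with both factors, by 1.32 with Dux (SE 0.148) and 1.00 with DUX4 (SE 0.101), and Erap1, which trims peptides, fell with DUX4 by 0.95 (SE 0.0643).

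**Figure D4:**
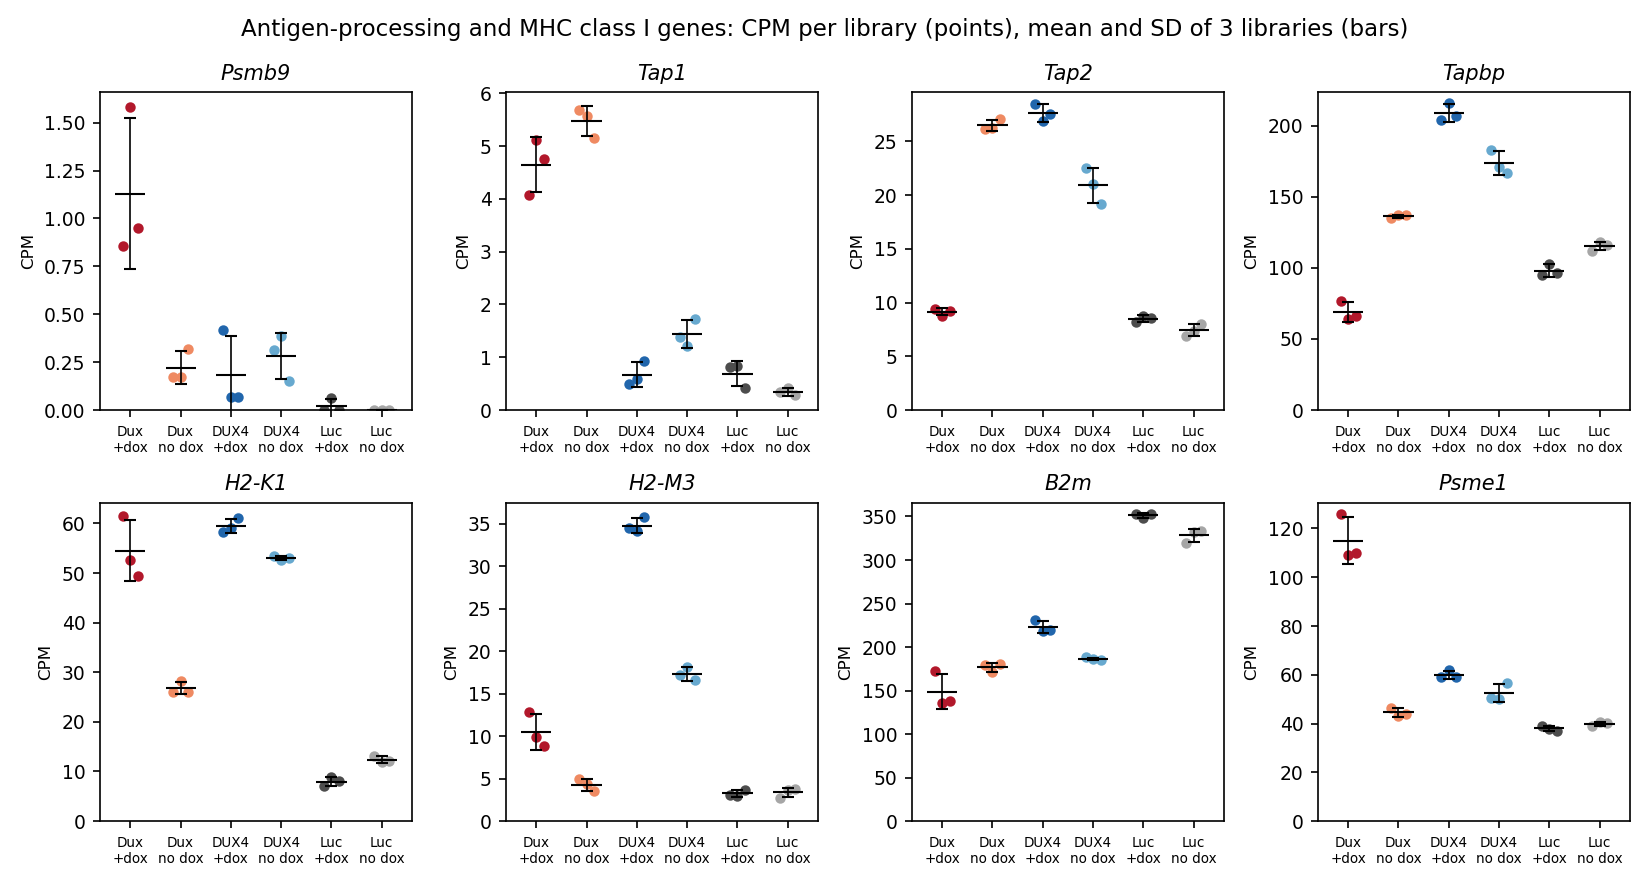
CPM of Psmb9, Tap1, Tap2, Tapbp, H2-K1, H2-M3, B2m and Psme1 in each library (points), with the mean and SD of the 3 libraries of each group (bars), and induced groups left of their uninduced groups. With Dux, Psmb9, H2-K1, H2-M3 and Psme1 rise while Tap2 and Tapbp fall, and in the DUX4 line H2-M3 rises and Tap1 falls.

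Both chemokine genes were below the limit for testing. Cxcl10 had 7 counts in induced Dux libraries (0.329, 0.0751 and 0.0733 CPM) and 0 in uninduced ones, at least 2.47-fold higher by the floor of 3 counts over the group. In the DUX4 line it had 1 count induced and 10 uninduced, a ratio of 0.101 (95% exact interval 0.00232 to 0.709), and of those 10, library 1 held most (0.438 CPM, against 0.0641 and 0.151 CPM in libraries 2 and 3). Ccl5 had 34 counts in induced and 23 in uninduced Dux libraries, and 3 in induced and 9 in uninduced DUX4 libraries, a ratio of 0.336 (0.0585 to 1.35).

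The difference between the Dux and the DUX4 response was tested gene by gene as an interaction. It passed the test in 23 of the 33 genes, higher with Dux in 12 and lower in 11, or 69.7% against 65.2% of all genes tested (32.9% higher and 32.3% lower). The clearest difference was that of Irgm1, at 1.91 (SE 0.0747, adjusted p = 4.64e-14). Ifit3 (−3.60, SE 0.374, adjusted p = 7.05e-08) and Oasl2 (−2.77, SE 0.429, adjusted p = 1.28e-05) responded more with DUX4. The opposite moves of Eif2ak2 (−1.30, SE 0.153), Dtx3l (−1.36, SE 0.122), Parp9 (−1.13, SE 0.129) and Ifit2 (−1.04, SE 0.111) also passed the test of the difference. Among the genes that rose in both lines, the response was larger with Dux for Irf7 (1.27, SE 0.316, adjusted p = 0.00163) and Igtp (1.20, SE 0.316, adjusted p = 0.00341). For Bst2 it was smaller with Dux (−0.43, SE 0.184, adjusted p = 0.0479), a call lost in 8 of the 12 fits that left out a library of either line, with adjusted p-values of 0.0561 to 0.138. No difference passed the threshold for Trim25, Parp14 (−0.42, SE 0.306, adjusted p = 0.257) and Mx1 (adjusted p = 0.554).

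**Figure D5:**
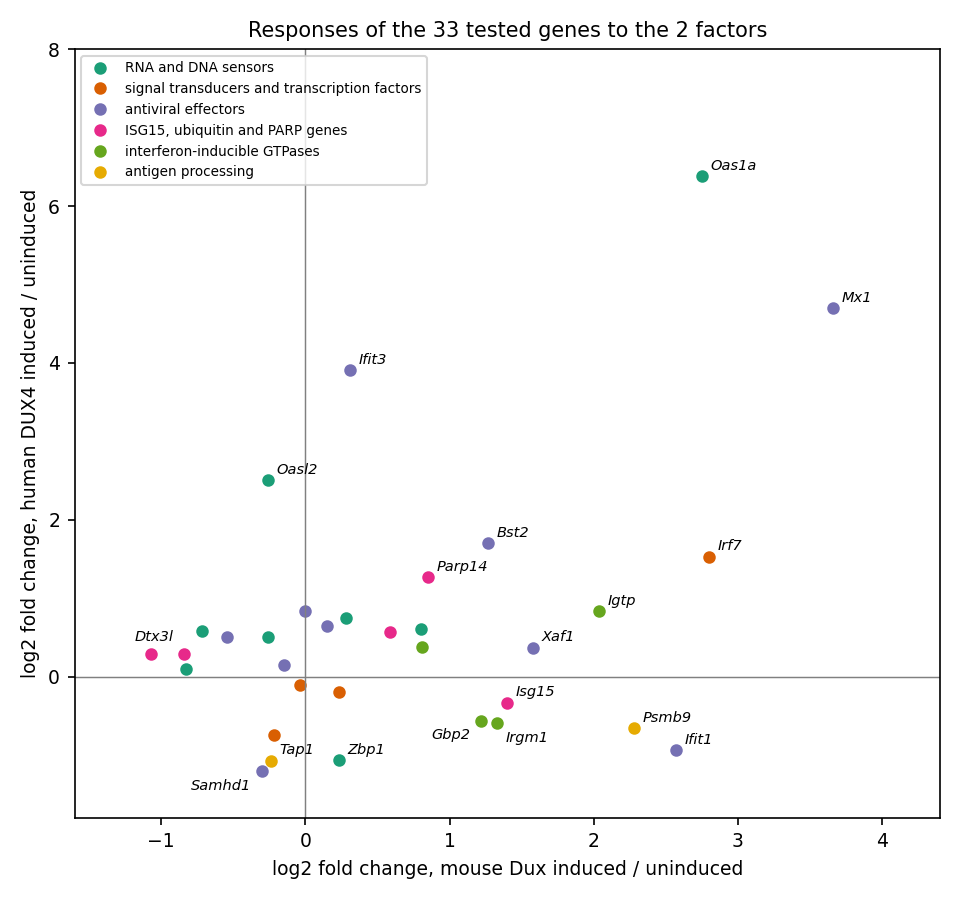
Log2 fold changes (induced over uninduced) of the 33 tested genes in the mouse Dux line (horizontal axis) against the human DUX4 line (vertical axis), coloured by role, with names for genes whose change is at least 1 in either line. Irf7, Igtp, Bst2 and Mx1 lie at the upper right, Ifit3 and Oasl2 near the vertical axis, and Irgm1, Psmb9 and Ifit1 below the horizontal axis on the right, and the fitted values of Oas1a and Mx1 rest on 3 or fewer uninduced counts.

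Doxycycline moved few of these genes in the luciferase line, where its effect and that of the induced luciferase cannot be told apart. In the luciferase line Irf9 rose to 11.7 ± 0.403 CPM, against 9.25 ± 0.506 CPM uninduced (0.33, SE 0.102, adjusted p = 0.0171), and Samhd1 to 112 ± 2.57 CPM, against 102 ± 3.25 CPM (0.14, SE 0.0407). Tlr3 fell to 1.12, 0.968 and 1.25 CPM, against 2.08, 1.89 and 1.24 CPM (−0.65, SE 0.222, adjusted p = 0.0314), with overlapping groups. Ifit2 fell by 0.22 (SE 0.0787, adjusted p = 0.0384) and Ifi27 by 0.26 (SE 0.0908, adjusted p = 0.0365). Each of these 5 calls was lost on leaving out 1 or more of the 6 luciferase libraries: 0 of the 33 genes rose without induced library 2, and 0 fell without induced library 1. Set against the luciferase response, which both tests share, the Dux response was higher in 14 genes and lower in 8 (66.7%, against 60.0% of all genes, 30.4% higher and 29.5% lower) and the DUX4 response higher in 16 and lower in 5 (63.6%, against 55.0%, 28.3% higher and 26.7% lower).

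The 3 clones differed before any induction, so that the same gene started from different levels. Uninduced Dux cultures were higher than uninduced luciferase cultures in 9 of the 33 genes and lower in 14 (69.7%, against 65.3% of all genes, 32.2% higher and 33.1% lower). Uninduced DUX4 cultures were higher in 12 and lower in 11 (69.7%, against 73.0%, 36.0% higher and 37.0% lower). Tap1 was at 5.69, 5.57 and 5.16 CPM in uninduced Dux libraries, against 0.346, 0.427 and 0.276 CPM in uninduced luciferase libraries (3.92, SE 0.241, adjusted p = 2.71e-11). Parp14 was at 14.6, 12.7 and 14.2 CPM in uninduced DUX4 libraries, against 1.21, 1.95 and 1.59 CPM in uninduced luciferase libraries (3.12, SE 0.144, adjusted p = 1.88e-13). Psmb9 had 10 counts in uninduced Dux and 13 in uninduced DUX4 libraries, against 0 in uninduced luciferase libraries, at least 3.60-fold and at least 4.66-fold higher. Gbp2 was lower in both, at 0.272 ± 0.163 CPM in uninduced Dux and 0.604 ± 0.255 CPM in uninduced DUX4 cultures, against 3.05 ± 0.369 CPM in uninduced luciferase cultures (−3.36, SE 0.316, and −2.33, SE 0.269). Zbp1 was lower in both the Dux and the DUX4 clone (−2.23, SE 0.590, and −1.72, SE 0.542), as was Ifih1 (−1.62, SE 0.218, and −2.32, SE 0.242). Ifit3 was lower in the DUX4 clone (−2, SE 0.3) and did not pass the test in the Dux clone (−0.49, adjusted p = 0.0764). The rise of Isg15 with Dux also began from a low level, 0.749 ± 0.278 CPM in uninduced Dux cultures against 2.64 ± 0.272 CPM in uninduced luciferase cultures (−1.83, SE 0.241).

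Per kilobase of annotated exon, the 40 genes spanned a wide range of levels. In uninduced luciferase cultures Ifi27 stood highest at 42.9 CPM per kb, followed by Samhd1 at 11.1, Irf1 at 9.68, Eif2ak2 at 9.39 and Bst2 at 9.38 CPM per kb, while Psmb9 had no count. In induced Dux cultures the order of the most abundant genes was Ifi27 (50.4 CPM per kb), Bst2 (17.7) and Irgm1 (12). In induced DUX4 cultures it was Ifi27 (42.2 CPM per kb), Bst2 (24.0), Eif2ak2 (20.9) and Trim25 (19.3). Even after their rise, Irf7 and Ifit1 reached 2.78 and 3.29 CPM per kb in induced Dux cultures, and Ifit3 5.85 and Oas1a 1.35 CPM per kb in induced DUX4 cultures.

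Interferon genes themselves were barely counted. The 12 interferon ligand genes searched summed to 26 counts over the 3 induced Dux libraries, against 4 in uninduced Dux libraries, to 2 in induced DUX4 libraries, against 0 in uninduced ones, and to 10 in induced luciferase libraries, against 12 in uninduced ones. Ifng, the gene of interferon gamma, held most of the counts in the Dux and luciferase lines. It was at 0.353 ± 0.113 CPM in induced and 0.0991 ± 0.0884 CPM in uninduced Dux cultures. In the luciferase line it was at 0.208 ± 0.133 CPM induced and 0.148 ± 0.0512 CPM uninduced. None of the 12 passed the filter on low counts. Of 15 tested genes for receptors and signalling, 7 rose and 8 fell with Dux (100%, against 68.9% of all genes), 8 rose and 5 fell with DUX4 (86.7%, against 67.6%), and 9 rose and 0 fell with doxycycline in the luciferase line (60.0%, against 31.1%). Jak2, a kinase of the interferon gamma receptor, rose with Dux to 670, 815 and 848 CPM, against 194, 195 and 195 CPM uninduced (2.00, SE 0.0661, adjusted p = 1.98e-15). Ifnar1, a chain of the type I interferon receptor, fell with Dux (−0.35, SE 0.0538) and rose with DUX4 (0.42, SE 0.0537), and Tyk2, its kinase, did likewise (−0.83, SE 0.0601, and 0.42, SE 0.0616). Ifnar1 and Tyk2 also rose with doxycycline in the luciferase line (0.21, SE 0.0528, and 0.34, SE 0.0571). Socs3, a feedback inhibitor of STAT signalling, fell with DUX4 to 10.5 ± 0.823 CPM, against 41.4 ± 2.94 CPM (−1.97, SE 0.0780). It also fell with Dux (−0.45, SE 0.0749) and rose with doxycycline in the luciferase line (0.79, SE 0.0681, adjusted p = 2.91e-08). Jak2 rose in the luciferase line too (0.21, SE 0.071, adjusted p = 0.0302), from 46.5 ± 1.84 CPM uninduced.

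Of 18 tested genes that act between nucleic acid sensing and interferon production, 6 rose and 7 fell with Dux (72.2%, against 68.9% of all genes), 7 rose and 7 fell with DUX4 (77.8%, against 67.6%), and 3 rose and 3 fell in the luciferase line (33.3%, against 31.1%). Mb21d1, which encodes the cytosolic DNA sensor cGAS, moved in opposite directions, to 19.9 ± 0.806 CPM in induced Dux cultures against 8.96 ± 1.13 CPM uninduced (1.14, SE 0.0959), and to 5.70 ± 0.727 CPM in induced DUX4 cultures against 17.2 ± 0.689 CPM uninduced (−1.59, SE 0.105). Mavs, the adaptor downstream of RIG-I, rose with DUX4 (0.96, SE 0.05).

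A further list of 50 interferon-stimulated genes, of which 49 were in the table and 39 tested, had 14 higher and 11 lower with Dux (64.1%, against 68.9% of all genes), 12 higher and 12 lower with DUX4 (61.5%, against 67.6%), and 4 higher and 1 lower with doxycycline in the luciferase line (12.8%, against 31.1%). Sp110, a nuclear body gene, had 950 counts in induced Dux libraries and 1 in uninduced ones, a ratio of 1007 (95% exact interval 180 to 39820), against 5 counts in induced and 3 in uninduced DUX4 libraries. Iigp1, a GTPase of the Irgm1 family, was at 11.6, 10.4 and 11.4 CPM in induced Dux libraries, against 0.0849, 0.0580 and 0.191 CPM in uninduced ones (6.54, SE 0.272), and rose with DUX4 as well, to 20.1 ± 0.655 CPM against 5.21 ± 0.920 CPM (1.96, SE 0.119). Oas2 had 65 counts in induced Dux libraries and 0 in uninduced ones, at least 23-fold higher, and 0 counts in both groups of the DUX4 line. Oas1g, a near-identical copy of Oas1a, had 50 counts in induced DUX4 libraries and 1 in uninduced ones, a ratio of 50.4 (8.64 to 2031), and 1 against 0 in the Dux line. Ifitm1, a membrane protein that blocks viral entry, fell with DUX4 to 0.741 ± 0.0992 CPM, against 6 ± 0.466 CPM uninduced (−3.00, SE 0.177).

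Set beside the promoter windows shown above, the 13 tested genes with an ISRE core had 8 higher and 2 lower with Dux, 5 higher and 1 lower with DUX4, and 0 in either direction in the luciferase line. The 14 tested genes whose window lacked it had 4 higher and 4 lower with Dux, 7 higher and 3 lower with DUX4, and 2 higher and 2 lower with doxycycline in the luciferase line. Over all genes tested, 34.1% were higher and 34.8% lower with Dux, 34.4% and 33.1% with DUX4, and 14.7% and 16.4% in the luciferase line. The split by motif was not tested. Irf7, Psmb9 and Oasl2, which rose in one or both lines, had no ISRE core in these windows, and Ddx58 and Eif2ak2, which fell with Dux, had one.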

How the data were processed

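Polyadenylated RNA of 18 C2C12 cultures (6 groups of 3, separate cultures per the study design) was sequenced. The deposited values are raw whole-number counts per gene, 1 column per library. Per the submitters' processing notes, the tools included TopHat2 2.0.12, Bowtie2 2.2.3 and CASAVA, and the build was mm10. Not given in the sources used here: counting program, annotation and strand setting. Counts shared by overlapping genes or near-identical copies are therefore uncertain. The 40 genes and all lists were chosen with earlier results of these data known.

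From the counts, the edgeR 4.0.16 (R 4.3.3, limma 3.58.1) rule filterByExpr by group left 13602 of 24028 genes. Library sizes were scaled by TMM. Group means over all 18 libraries were fitted in one quasi-likelihood model, with two-sided F tests, Benjamini-Hochberg adjustment over all genes tested and a threshold of 0.05. The common biological coefficient of variation came to 6.25%. Each standard error is the log2 fold change divided by the square root of F. The p-values reflect variation among cultures only, with one pooled estimate although the lines differ in theirs. Differences between responses are interaction contrasts. Against a group with 0 counts the fold is a bound, computed with 3 counts in that group's place. Against 1 to 3 counts the ratio carries a 95% exact (Clopper-Pearson) interval, and no fold is printed where neither group exceeded 3 counts. Such intervals and bounds cover counting error only. Values per library are given for genes of the 40 called with an absolute log2 fold change of at least 1 and for others described in detail. Beyond the 40, up to 4 called genes with the largest absolute change were named per list and comparison. Their values in other comparisons, and Ifnar1 and B2m, were added after their values were seen. The gene Rnf213 of the list of other interferon-stimulated genes was not analysed here.

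Positions and exon lengths came from GENCODE vM21 (GRCm38), and promoter windows from RefSeq (GRCm38.p6). Alternatives were other scalings (median-of-ratios factors, library size alone), no filter on low counts, only the groups compared, a replicate block, DESeq2 1.42.0, and leaving out each library. The fitting code was tested on simulated data. No pairing was used in the main fit. Libraries with the same replicate number did not deviate together in the DUX4 and luciferase lines. In the Dux line those of number 1 did so weakly (correlation 0.22).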

Additional observations from a re-analysis of the deposited data

Results flagged for a closer look

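The values here are differences between 2 responses (log2 scale, induced over uninduced, edgeR interaction) of at least 1.5 in size with an adjusted p under 0.05. They describe genes whose response depended on the line. No gene was checked for a single outlying library, as each group has only 3; the effect of leaving out each library is given below.

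Between the Dux and the DUX4 response, the difference was 3.50 for Ifit1 (SE 0.944, adjusted p = 0.00307), 2.94 for Psmb9 (SE 0.869, adjusted p = 0.00679), 1.91 for Irgm1 (SE 0.0747, adjusted p = 4.64e-14), 1.78 for Gbp2 (SE 0.616, adjusted p = 0.0162) and 1.73 for Isg15 (SE 0.332, adjusted p = 0.000140), all higher with Dux. It was −3.60 for Ifit3 (SE 0.374, adjusted p = 7.05e-08) and −2.77 for Oasl2 (SE 0.429, adjusted p = 1.28e-05), both higher with DUX4. Without uninduced DUX4 library 1 the difference was 2.46 for Ifit1 (adjusted p = 0.119) and 1.48 for Gbp2 (adjusted p = 0.0626).

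Between the Dux and the luciferase response, the difference was 2.77 for Irf7 (SE 0.401), 2.57 for Ifit1 (SE 0.473), 2.00 for Xaf1 (SE 0.247), 1.85 for Isg15 (SE 0.326), 1.84 for Igtp (SE 0.302) and 6.26 for Mx1 (SE 2.00, adjusted p = 0.0126). The Mx1 call was lost without uninduced luciferase library 1 (5.95, adjusted p = 0.0543) or 2 (5.92, adjusted p = 0.0549), each of which held 1 of the 2 uninduced luciferase counts.

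Between the DUX4 and the luciferase response, the difference was 3.70 for Ifit3 (SE 0.341), 2.94 for Oasl2 (SE 0.264), 1.79 for Bst2 (SE 0.184), 1.54 for Parp14 (SE 0.245), 1.5 for Irf7 (SE 0.401), −2.01 for Tap1 (SE 0.466), 7.29 for Mx1 (SE 2.10, adjusted p = 0.00704) and 8.20 for Oas1a (SE 2.63, adjusted p = 0.0155). The Oas1a difference became 6.38 (adjusted p = 1) without uninduced luciferase library 1, which held the only count of that line. The Mx1 and Oas1a values depend on the prior count and are no bounds. The luciferase response is shared by these last comparisons. Part of the Tap1 difference lies in the luciferase line, as its DUX4 response alone was −1.07. Tap1 was at 0.688 ± 0.235 CPM in induced and 0.350 ± 0.0752 CPM in uninduced luciferase cultures, a change that did not pass the test.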

How the results depend on the processing

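Across 119 named results on single genes and 1662 alternative values, 1576 kept their direction and side of the threshold, 66 fell short of it, 10 newly passed it and 10 changed sign. The sign changes were the Dux minus DUX4 difference of Trim25 (−0.19 with library size alone, −0.07 to 0.11 over libraries left out), that of Mx1 (1.64 without uninduced Dux library 3, within −2.93 to 1.64), Stat2 with Dux (−0.01, library size alone), Ifit1 with DUX4 (0.10 without uninduced DUX4 library 1, within −2.48 to 0.10 over all libraries left out) and Psmb9 in the luciferase line (0.00 without induced luciferase library 2, within 0.00 to 2.27). Induced luciferase library 2 held the only Psmb9 count of that line. The 0.00 without it compares groups with no counts, though it is tallied among the 10. Uninduced DUX4 library 1 held 7 of the 10 Ifit1 counts of its group. Beyond these counts, the cause was not tested. Library size alone shifted the median of all genes in the Dux response by −0.25 and that of the 33 genes to 0.04, and gave 12 genes lower with Dux in place of 7. In the luciferase response, 1 gene was lower with library size alone, 1 was higher without the filter and 6 were lower when only its own groups were fitted. The shares of all genes called are not given for these alternatives, nor for the fits with a library left out. The counts therefore show only how stable the calls were and do not set the genes apart. Leaving out each library in turn gave these ranges. With Dux 12 to 14 rose and 6 to 7 fell, with DUX4 16 to 19 rose and 4 fell throughout, and with luciferase 0 to 3 rose and 0 to 2 fell. For the Dux minus DUX4 difference the range was 10 to 13 higher and 10 to 11 lower, for Dux minus luciferase 12 to 14 and 7 to 9, and for DUX4 minus luciferase 15 to 17 and 4 to 6. For uninduced Dux over luciferase it was 8 to 10 higher and 12 to 14 lower, and for uninduced DUX4 over luciferase 11 to 13 and 10 to 11. Without induced Dux library 1, which stood apart, 14 genes rose and 7 fell with Dux, with Adar newly called higher (0.14, adjusted p = 0.0418) and Gbp2 no longer called. With the replicate number as a block, 14 rose and 7 fell with Dux, 16 rose and 4 fell with DUX4, and 2 rose and 3 fell with luciferase; of the named calls, the block ended only that of Dhx58 with DUX4 (0.76, adjusted p = 0.0603). Deviations of same-numbered induced and uninduced libraries correlated at 0.22, 0.10 and 0.08 in the Dux line. The correlations were −0.03, 0.02 and −0.02 in the DUX4 line and 0.02, 0.03 and 0.01 in the luciferase line. Within the Dux line, number 1 correlated with the other numbers at −0.17 to −0.13, and numbers 2 and 3 with each other at 0.09. What sets the number 1 libraries of that line apart was not tested. Counts limit the precision for Oas1a, Mx1, Psmb9, Gbp2 and the 7 genes not tested.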

Other observations

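NF-kB target genes share many inducers with the interferon system. Of 17 tested, 12 were higher and 3 lower in induced Dux cultures (88.2%, against 68.9% of all genes), 7 higher and 7 lower in induced DUX4 cultures (82.4%, against 67.6%), and 6 higher and 0 lower in induced luciferase cultures (35.3%, against 31.1%). The cytokine gene Il6 rose with both factors, to 2.14 ± 0.565 CPM in induced Dux cultures against 0.162 ± 0.141 CPM uninduced (log2 fold change 3.53, SE 0.428, edgeR adjusted p = 5.07e-07), and to 7.22 ± 0.428 CPM in induced DUX4 cultures against 0.110 ± 0.0296 CPM uninduced (5.92, SE 0.359, adjusted p = 1.73e-11). The chemokine genes Ccl2 and Ccl7 rose with Dux (2.60, SE 0.153, and 1.91, SE 0.118) and fell with DUX4 (−2, SE 0.176, and −1.74, SE 0.200). Vcam1, an adhesion molecule for leukocytes, fell with DUX4 to 5.55 ± 0.309 CPM, against 36.6 ± 2.33 CPM uninduced (−2.72, SE 0.0752), and rose with Dux (1.14, SE 0.0512) and with doxycycline in the luciferase line (0.65, SE 0.0519). Cxcl5, a chemokine for neutrophils, fell with Dux to 2.92 ± 0.481 CPM, against 16.9 ± 1.53 CPM uninduced (−2.52, SE 0.160), did not pass the test with DUX4 (−0.34, adjusted p = 0.414), and rose with doxycycline in the luciferase line (1.67, SE 0.154).

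The GTPase genes Irgm2 and Tgtp1, relatives of Irgm1, also responded more with Dux than with DUX4, by 3.09 (SE 0.418) and 4.78 (SE 0.477) on the log2 scale.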
